A study of Homo sapiens with 6 samples.

Results

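Epithelial-mesenchymal transition (EMT) regulators and markers were followed in a pair of human colon cancer lines. They comprise 10 genes chosen by name: the mesenchymal markers VIM and FN1, the transcription factors ZEB1, ZEB2, SNAI1, SNAI2, TWIST1 and TCF4, and the epithelial regulators ESRP1 and OVOL1. Every probe set that the platform annotation assigns to exactly 1 of these symbols was kept, which gave 23 of 22215 probe sets, or 10 of 11963 genes. HCT116 is an established colon carcinoma line, labelled as poorly metastatic, and E1 is labelled as a metastatic line derived in vivo whose cell line field also reads HCT116. The labels name no treatment, engineered allele or time for either line, and do not give the host, site or number of passages behind E1 or whether E1 is a single clone. Affymetrix arrays of biotin-labelled total RNA were deposited, 3 for HCT116 and 3 for E1. Nothing in the labels says that the arrays of a line came from separate cultures, so a p-value here reflects array-to-array spread that can be technical in origin. Arrays of a bulk culture cannot tell fewer cells expressing a gene from less RNA per cell.

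EMT is the program by which epithelial cells lose their junctions and polarity and gain motility and a fibroblast-like shape. The zinc finger factors of the ZEB and SNAI families and the basic helix-loop-helix factor TWIST1 repress epithelial genes such as CDH1, often by binding E-box sequences in their promoters, while the intermediate filament protein vimentin (VIM) and the matrix protein fibronectin (FN1) mark the mesenchymal state. ESRP1, an RNA-binding protein that directs epithelial splicing, and OVOL1, a zinc finger repressor of ZEB genes, oppose the program. In colon carcinoma, ZEB1 and SNAI1 are known for their association with loss of E-cadherin at the invasive edge. TCF4 here is the E-protein also called E2-2, a dimerization partner of basic helix-loop-helix factors, and not the Wnt effector TCF7L2, which is often called TCF4 in the colon cancer literature.

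The E-box variant bound by the ZEB and SNAI factors reads CAGGTG, or CACCTG on the other strand, and these spellings cannot overlap. It was searched on both strands in the 250 bases before each gene start in RefSeq promoter sequences of build GRCh38.p14. Of 35116 windows, 17.5% held at least 1 match. Windows were given for 5 of the 10 members, VIM, FN1, ZEB1, ZEB2 and TCF4. ZEB1 was the member with matches, in 2 of its 7 windows. That is 1 of 5 members with a window (20%), beside 20.6% of all genes with one, and 2 of 20 member windows (10%). Below, the ZEB1 window with the most matches is set beside that of VIM, a marker without a match, and that of CLDN7, a claudin of tight junctions and an epithelial gene with 4 matches in the window shown and 0 in its other one. Capitals mark the E-box.
ZEB1, chr10:31318966-31319215, plus strand: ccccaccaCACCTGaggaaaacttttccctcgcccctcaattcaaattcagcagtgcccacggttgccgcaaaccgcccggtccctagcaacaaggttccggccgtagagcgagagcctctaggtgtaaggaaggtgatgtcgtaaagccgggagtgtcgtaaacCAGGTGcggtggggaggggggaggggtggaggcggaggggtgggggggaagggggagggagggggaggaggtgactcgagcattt
VIM, chr10:17227991-17228240, plus strand: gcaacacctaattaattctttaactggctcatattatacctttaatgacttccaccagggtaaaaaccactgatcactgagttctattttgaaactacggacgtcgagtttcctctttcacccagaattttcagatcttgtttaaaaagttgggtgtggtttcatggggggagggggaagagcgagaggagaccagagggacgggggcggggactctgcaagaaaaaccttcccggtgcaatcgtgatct
CLDN7, chr17:7262479-7262728, minus strand: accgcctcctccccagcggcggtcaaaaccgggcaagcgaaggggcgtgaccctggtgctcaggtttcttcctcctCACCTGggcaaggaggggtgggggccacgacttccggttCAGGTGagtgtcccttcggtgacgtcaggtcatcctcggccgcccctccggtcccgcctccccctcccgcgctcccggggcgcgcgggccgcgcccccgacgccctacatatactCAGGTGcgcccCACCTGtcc
A match is a run of letters and not a measured binding site, and the absence of a match says only that these letters are not in this window.

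The E1 arrays were not alike. The ratio of 3' to 5' signal of the GAPDH control, which is raised where the 5' part of transcripts gives little signal, lay between 0.774 and 0.811 on the 3 HCT116 arrays and E1 array 1, but was 34.1 on E1 array 2 and 71.9 on E1 array 3. Values with E1 array 1 alone against the 3 HCT116 arrays, whose spread then stands for both lines, are given beside the results. That fit called 0 of all 22215 probe sets in limma (2791 at an unadjusted p under 0.05), so no call is read from it. To read low signals, 27 control probe sets for Bacillus subtilis transcripts, which have no human target, were used as a background. Their intensity had a median of 5.64 over the 6 arrays and reached 75.3, a value from E1 array 3. On the other arrays the highest control read from 39.6 to 52.7, so signals were also set against the highest control of their own array. Whether such transcripts were spiked in is not given in the sources used here, and array medians over all probe sets ran from 48.1 to 66.6.

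No member, that is none of the 10 EMT regulators and markers chosen by name, was called different between the lines. Differences are given as E1 minus HCT116 on the scale of log2(intensity + 32), each with its SE (standard error) and 95% interval from a limma fit over all 22215 probe sets. A probe set is called where its p, adjusted by Benjamini-Hochberg across that whole table, is under 0.05. Of the 23 probe sets 0 were called in limma, where 171 of all probe sets, 0.770%, were called. Of the 171, 48 (0.216% of those tested) were higher and 123 (0.554%) lower in E1. That split was 79 and 108 after quantile normalization and 79 and 127 after subtraction of array medians, which moved the median difference of all probe sets from -0.02 to 0.13. At an unadjusted p under 0.05 stood 5 of the 23, namely 3 of FN1 above HCT116 and those of SNAI1 and OVOL1 below, beside 16.5% of all probe sets, 4.75% above and 11.7% below. The arrays of the lines did not overlap for 5 of the 23, beside 20.5% of all probe sets. Of these 5, 3 were higher in E1, beside 7.45% of all, and 2 lower, beside 13.0%. The higher ones were FN1 212464_s_at, FN1 216442_x_at and TCF4 222146_s_at, and the lower ones FN1 214702_at and OVOL1, whereas SNAI1 overlapped. TCF4 222146_s_at and FN1 214702_at lay within the bacterial range on every array. The shares without regard to direction are near those of the whole array. The 23 had a median difference of 0.06, with 14 positive and 9 negative, beside a median of -0.02 over all probe sets. FN1 and TCF4 gave 6 and 7 of the 23, so these counts weigh those genes more than the others. With the brightest probe set by mean standing for each gene, the 10 members had a median of -0.07, with 5 positive and 5 negative. With E1 array 1 alone 3 of the 23 had an unadjusted p under 0.05, beside 12.6% of all.

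**Figure D1:**
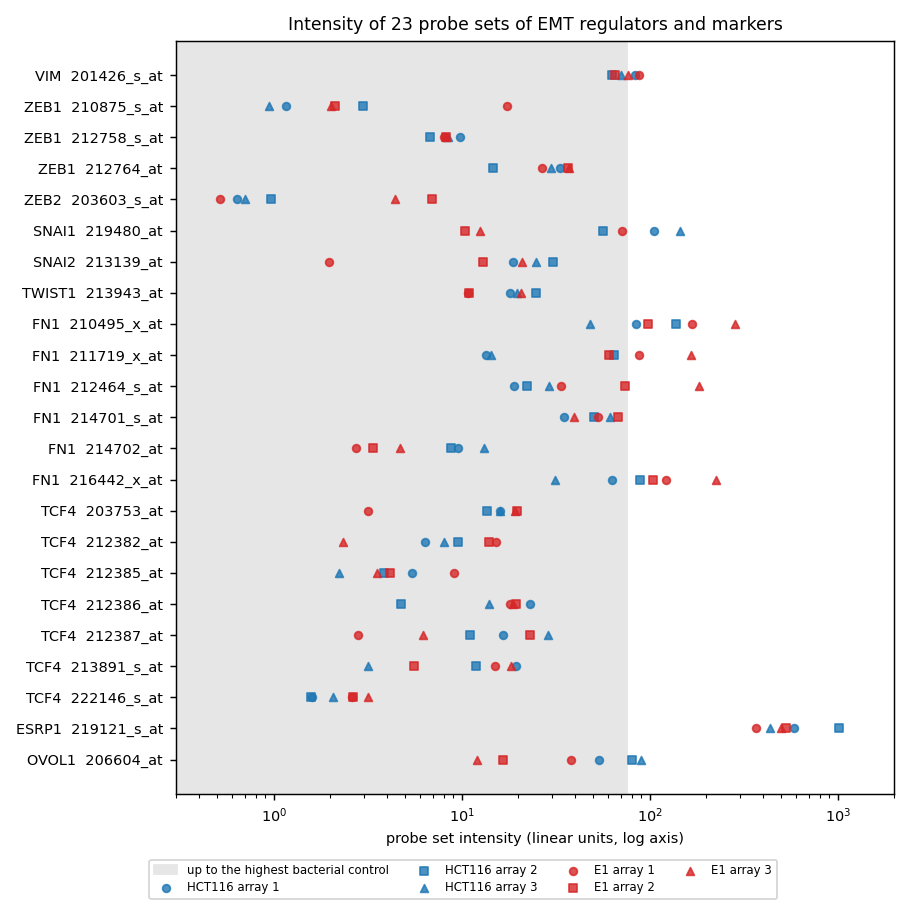
Intensity (log axis) of each of the 23 probe sets on the 3 HCT116 arrays (blue) and the 3 E1 arrays (red), with the range up to 75.3, the highest bacterial control of any array (E1 array 3), shaded. ESRP1 lies above that range on all 6 arrays, VIM near its upper edge, and all probe sets of ZEB1, ZEB2, SNAI2, TWIST1 and TCF4 lie within it.

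Vimentin, the intermediate filament protein of mesenchymal cells on chromosome 10, gave similar intensities in both lines. Its probe set read 83.2, 62.5 and 70.6 on the HCT116 arrays and 87.7, 65.1 and 76.1 on the E1 arrays. The groups overlapped. Each value exceeded the highest bacterial control of its own array, and 3 of the 6 exceeded 75.3. The difference was 0.06 (SE 0.14, limma adjusted p = 0.905) with a 95% interval from -0.28 to 0.39. With E1 array 1 alone it was 0.21. The offset compresses differences at such signals, and with an offset of 1 the difference was 0.08. It was 0.23 after quantile normalization and 0.21 after subtraction of array medians.

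Fibronectin, FN1 on chromosome 2, is a secreted glycoprotein that integrins bind. Its 6 probe sets did not behave alike. Probe set 216442_x_at read 62.7, 88.7 and 31.3 in HCT116 and 122, 103.5 and 226 in E1, and 212464_s_at read 18.8, 22.3 and 29.2 against 33.6, 74.0 and 182. In both, every E1 array lay above every HCT116 array and E1 array 3 was the highest. Probe set 210495_x_at read 84.6, 137.8 and 48.3 against 166.6, 97.4 and 285, and 211719_x_at read 13.5, 64.3 and 14.3 against 87.7, 60.6 and 165.4. Here the lines overlapped, because HCT116 array 2 read above E1 array 2. Names ending in _x_at mark probe sets in which some probes also match other sequences, so these probe sets may share probes and are not independent measurements of the gene.

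The differences of these 4 probe sets were 0.97 for 216442_x_at (SE 0.33, 95% interval 0.16 to 1.77), 1.05 for 212464_s_at (SE 0.42, interval 0.04 to 2.06), 0.79 for 210495_x_at (SE 0.40, interval -0.19 to 1.76) and 1.14 for 211719_x_at (SE 0.40, interval 0.18 to 2.11). Their limma adjusted p ran from 0.245 for 216442_x_at to 0.398 for 210495_x_at. With E1 array 1 alone the values were 0.78, 0.25, 0.77 and 1.03 in the same order, so that of 212464_s_at was the one that moved most. Without E1 array 3 the differences of 212464_s_at and 210495_x_at were 0.59 and 0.46, and without HCT116 array 3 that of 210495_x_at was 0.52. With an offset of 1 the 4 differences were 1.33, 1.70, 1.00 and 1.99. Against the highest control of its own array, 216442_x_at and 210495_x_at were each above on 5 of 6 arrays, 211719_x_at on 4 and 212464_s_at on 2. The other 2 probe sets showed no such difference. Probe set 214701_s_at read 35.1, 50.3 and 61.5 against 53.1, 68.1 and 39.6, a difference of 0.08 (SE 0.19). It was above the highest control of its own array on 4 of 6 arrays, 2 of each line, as often as 211719_x_at. Probe set 214702_at, within the bacterial range throughout, read 9.49, 8.72 and 13.1 against 2.73, 3.36 and 4.71, a difference of -0.25 (SE 0.11, limma adjusted p = 0.317) that was -1.32 with an offset of 1.

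**Figure D2:**
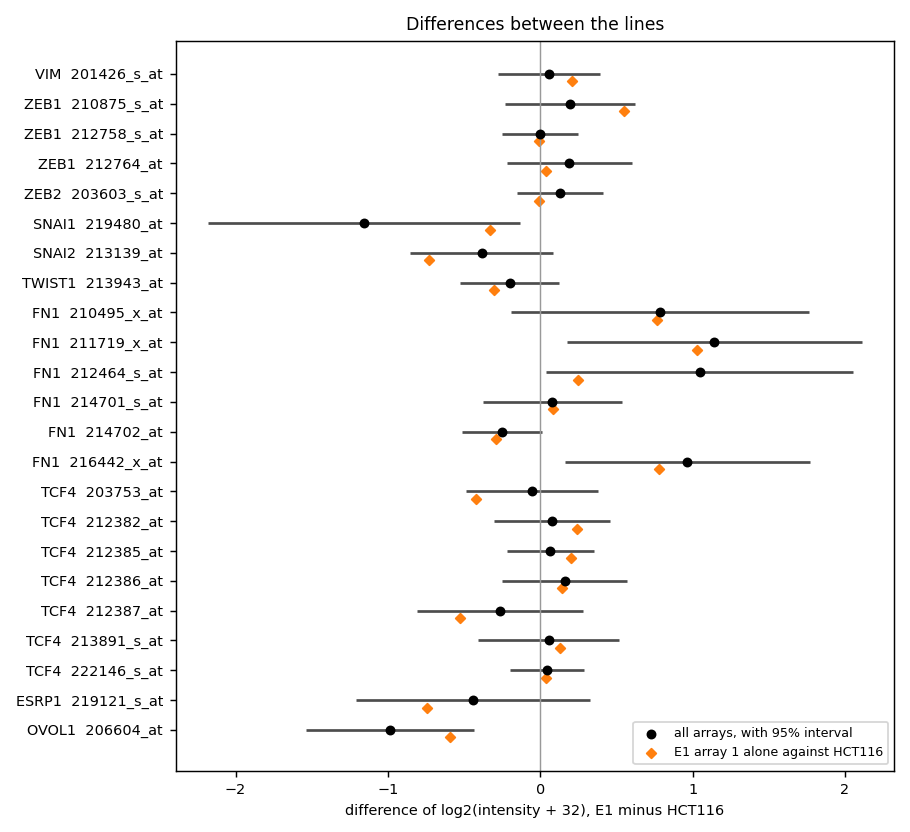
Difference of log2(intensity + 32), E1 minus HCT116, for each of the 23 probe sets, with its 95% interval from limma over all arrays (black) and the value with E1 array 1 alone (orange). The widest intervals belong to SNAI1 and FN1, and VIM, ZEB1, ZEB2 and most TCF4 probe sets lie close to 0.

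SNAI1 on chromosome 20 encodes Snail, a repressor of CDH1. Its probe set read 105.2, 56.0 and 145.5 on the HCT116 arrays and 70.7, 10.4 and 12.4 on the E1 arrays. E1 array 1 lay within the range of HCT116, whereas E1 arrays 2 and 3, those with the raised GAPDH ratio, lay below all other arrays. The difference was -1.16 (SE 0.42, 95% interval -2.18 to -0.13, limma adjusted p = 0.263) over the 6 arrays and -0.33 (SE 0.43) for E1 array 1 alone. With the GAPDH ratio as a covariate it was -0.35. That ratio sets E1 arrays 2 and 3 apart from all other arrays. The covariate fit therefore comes close to E1 array 1 alone, here and for other genes, and is not a separate check. With an offset of 1 the SNAI1 difference was -2.11. It was -1.05 after quantile normalization and -1.01 after subtraction of array medians. All 3 HCT116 arrays and E1 array 1 read above the highest bacterial control of their own array. Leaving out E1 array 1 gave -1.57 and a call, at a limma adjusted p of 0.0352, in a range of adjusted p from 0.0352 to 0.832 over all alternatives. That setting, which rests on the E1 arrays with GAPDH ratios of 34.1 and 71.9, called 2358 probe sets, 10.6% of all.

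OVOL1 on chromosome 11, the zinc finger repressor of ZEB genes, had the smallest p of the 10 genes. It read 53.6, 80.1 and 89.7 in HCT116 and 37.8, 16.6 and 12.0 in E1. The arrays did not overlap, E1 array 1 stood between HCT116 and the other E1 arrays, and the 3 HCT116 values but 0 E1 values exceeded the highest bacterial control of their own array. The difference was -0.99 (SE 0.23, 95% interval -1.54 to -0.44, limma adjusted p = 0.130). After quantile normalization it was -0.89, and after subtraction of array medians -0.84. It was -0.59 (SE 0.25, limma adjusted p = 0.452) with E1 array 1 alone and -0.58 with the GAPDH ratio as a covariate, and -1.83 with an offset of 1 over all arrays. Without E1 array 1 it was -1.19 and called, at an adjusted p of 0.0203, which is the lowest of its alternatives, the highest being 0.452. Over all probe sets, 18.3% had E1 arrays 2 and 3 both below the other 4 arrays, as did 2 of the 23 (8.70%), SNAI1 and OVOL1. Both lay above the other 4 arrays for 5 of the 23 (21.7%), beside 13.6% of all. The part of the 5' signal loss in these values cannot be told apart from the line on arrays 2 and 3.

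ESRP1 on chromosome 8, which directs epithelial splicing, was the gene with a probe set above 75.3 on all 6 arrays; VIM was, like ESRP1, above the highest control of its own array on all 6. It read 581, 1011.3 and 437 in HCT116 and 368, 532 and 500.1 in E1. HCT116 array 2 was the highest and E1 array 1 the lowest, and the lines overlapped. The difference was -0.44 (SE 0.32, 95% interval -1.21 to 0.32, limma adjusted p = 0.557), and -0.74 (SE 0.49) with E1 array 1 alone. It was -0.12 without HCT116 array 2, -0.70 without HCT116 array 3 and -0.29 without E1 array 1.

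**Figure D3:**
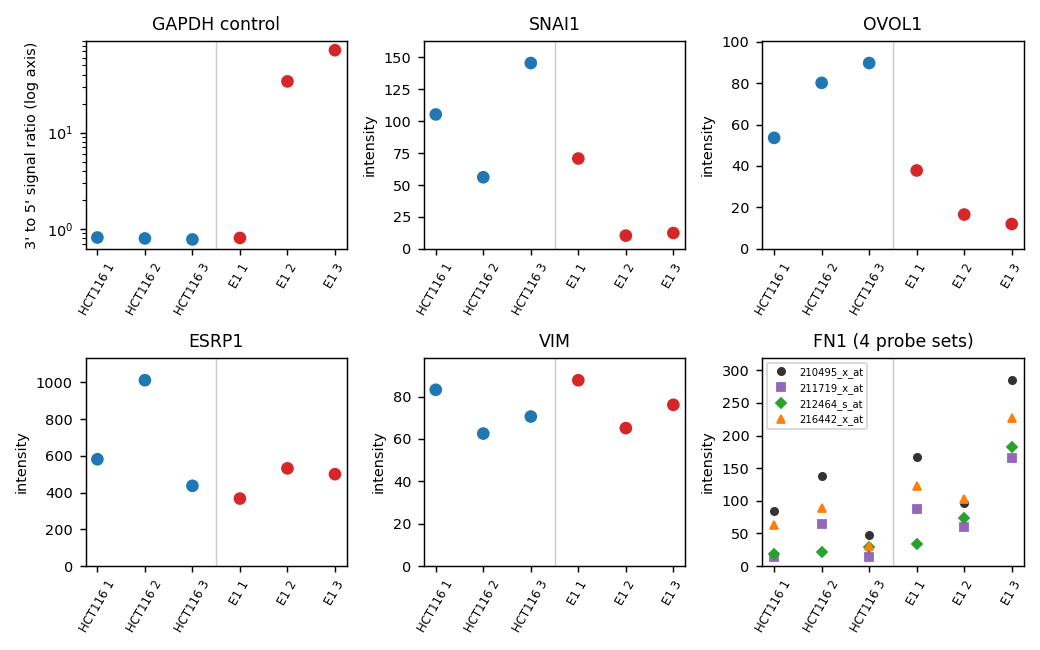
GAPDH 3' to 5' signal ratio (log axis) and intensities (linear axes from 0) of SNAI1, OVOL1, ESRP1, VIM and 4 FN1 probe sets on each array, HCT116 left and E1 right of the grey line, 1 point per array. The FN1 probe sets shown are the 4 that read above 75.3 on at least 1 array. For 211719_x_at and 212464_s_at this was so on E1 arrays only, a choice that favours high E1 values. FN1 214701_s_at and 214702_at, with differences of 0.08 and -0.25, never read above 75.3 and are not drawn. SNAI1 read 10.4 and 12.4 on the E1 arrays with GAPDH ratios of 34.1 and 71.9 and 70.7 on E1 array 1. The 4 FN1 probe sets shown were highest on E1 array 3.

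The other 5 transcription factors gave signals within the range of the bacterial controls. Over ZEB1, ZEB2, SNAI2, TWIST1 and TCF4, 13 probe sets read from 0.515 to 37.0, and 0 of them exceeded 75.3 on any array, as was so for 46.0% of all probe sets. They were also below the highest control of their own array on every array. At such signals the offset of 32 compresses differences, and no gene is called absent because detection calls were not used here. ZEB1, the repressor whose promoter is shown above, had 3 probe sets. The brightest, 212764_at, read 33.2, 14.6 and 29.9 in HCT116 and 26.7, 36.8 and 37.0 in E1, with overlapping groups and a difference of 0.19 (SE 0.17, 95% interval -0.22 to 0.60). Probe set 212758_s_at read between 6.79 and 9.72 on all arrays, and 210875_s_at read between 0.938 and 2.98 except for 17.4 on E1 array 1; with an offset of 1 the difference of the latter was 1.13. ZEB2 on chromosome 2, its paralog, read 0.638, 0.969 and 0.698 against 0.515, 6.96 and 4.41, within the bacterial range, with a difference of 0.13 (SE 0.12) that was 1.19 with an offset of 1.

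SNAI2 on chromosome 8 encodes Slug, the other SNAI family repressor. It read 18.6, 30.6 and 24.7 in HCT116 and 1.97, 12.9 and 20.9 in E1, a difference of -0.39 (SE 0.19, 95% interval -0.86 to 0.09, limma adjusted p = 0.389). E1 array 1 was the lowest here and E1 array 3 lay within HCT116. With E1 array 1 alone the value was -0.73 (limma adjusted p = 0.305), and with an offset of 1 it was -1.38 over all arrays. TWIST1 on chromosome 7 read 18.1, 24.9 and 19.5 against 10.8, 11.0 and 20.6, a difference of -0.20 (SE 0.13) with overlapping groups, and -0.30 with E1 array 1 alone. The 7 probe sets of TCF4, on chromosome 18, read from 1.57 to 28.6, and their differences ran from -0.26 to 0.16 with limma adjusted p from 0.641 to 0.939. For 222146_s_at the arrays of the lines did not overlap, at 1.60, 1.57 and 2.06 against 2.59, 2.64 and 3.17, a difference of 0.04 (SE 0.10) at signals below the background median.

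Genes around the members were read from a fit over 11963 genes, with the brightest probe set by mean standing for each gene, in which 50 genes, 0.418%, were called and 15.0% had an unadjusted p under 0.05. The median difference over all genes was -0.01. In that fit 0 of the 10 members were called, and SNAI1 and OVOL1, both below HCT116, had an unadjusted p under 0.05, beside 9.70% of all genes in that direction. Of 114 measured genes in 7 lists, 2 were called, both in the list of mesenchymal adhesion, matrix and cytoskeleton genes. The lists were chosen with earlier results of these data known, so these calls are a description of the lists. Leaving out E1 array 1 called 23 of the 114, 7 higher and 16 lower, among them HDAC1, GATA6, SRSF1, TGFB1 and PLEC, which are described below. It called 1073 of the 11963 genes, 8.97%, 196 higher and 877 lower.

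Of 18 measured genes of other EMT factors, their E-protein and ID partners and corepressors, 0 were called in limma and 2 had an unadjusted p under 0.05, with a list median of -0.00060. The histone deacetylase HDAC1, a corepressor recruited by Snail, read 1272, 1348 and 1519 in HCT116 and 1874, 2424 and 2841 in E1, a difference of 0.76 (SE 0.19, limma adjusted p = 0.184). The E-protein TCF12 read 452, 521 and 393 against 595, 624 and 713, a difference of 0.48 (SE 0.16, limma adjusted p = 0.265). For both genes every E1 array lay above every HCT116 array, and with E1 array 1 alone the values were 0.44 and 0.37.

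Of 24 epithelial adhesion and polarity genes that EMT factors repress, 0 were called in limma and 7 had an unadjusted p under 0.05, 2 above and 5 below HCT116. The list median was -0.26, and -0.08 with E1 array 1 alone. E-cadherin, CDH1, read 692, 938 and 486 in HCT116 and 584, 606 and 959 in E1, with overlapping groups, a difference of 0.03 (SE 0.29) and a 95% interval from -0.67 to 0.73, and -0.21 with E1 array 1 alone. CLDN7, whose promoter is shown above, read 955, 1215 and 489 against 594, 142.8 and 150.4, a difference of -1.67 (SE 0.57, limma adjusted p = 0.275) over the 6 arrays and -0.46 for E1 array 1 alone. As for SNAI1, its E1 array 1 lay within HCT116 and E1 arrays 2 and 3 lay below all others. The keratin KRT18 read from 7509 to 8466 in HCT116 and from 5677 to 6285 in E1, a difference of -0.40 (SE 0.13, limma adjusted p = 0.260), where E1 array 1 alone gave -0.32. The polarity protein gene PATJ read 5.34, 1.02 and 0.965 against 17.5, 17.3 and 20.8, within the bacterial range (difference 0.55, SE 0.13, and 0.52 with E1 array 1 alone). CDH1 and CLDN7 were named for their role and after their values were seen, and KRT18 and PATJ by the smallest p of the list.

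Leaving out E1 array 1 called 9 of the 24 epithelial genes, EPCAM higher and AP1M2, CLDN3, CLDN7, JUP, KRT8, LLGL2, PKP3 and SPINT1 lower, where 0 were called with all arrays. That fit called 8.97% of all genes and rests on the E1 arrays with GAPDH ratios of 34.1 and 71.9. The E-box was present before at least 1 start of 11 of the 14 measured list genes with a promoter window (78.6%), beside 20.6% of all genes with one. A gene with more windows has more places for a match. Of the 24 windows of the list, which include that of the unmeasured CRB3, 14 (58.3%) held a match, beside 17.5% of all windows. CDH1 had no window. The list was chosen as genes that EMT factors repress, so these shares are a description of the list.

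Of 10 measured other epithelial transcription factors 0 were called in limma and 3 had an unadjusted p under 0.05, with a median of -0.20. The endodermal factor GATA6 read 52.1, 50.7 and 55.1 against 81.4, 108.4 and 137.1, a difference of 0.72 (SE 0.18, limma adjusted p = 0.181), where E1 array 1 alone gave 0.42. OVOL2, the paralog of OVOL1, read 87.3, 76.4 and 88.7 against 59.0, 55.2 and 45.5, a difference of -0.45 (SE 0.13, limma adjusted p = 0.240), and -0.35 with E1 array 1 alone. Its arrays did not overlap between the lines, as for OVOL1, but E1 array 1 read close to the other E1 arrays.

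Of 27 mesenchymal genes 2 were called, both higher in E1, and 5 had an unadjusted p under 0.05, with a median of 0.09. The called genes were the matrix glycoprotein SPARC, at 4.44 (SE 0.33, limma adjusted p = 0.0118), and the calcium-binding protein S100A4, at 1.27 (SE 0.15, limma adjusted p = 0.0384). SPARC read 1.79, 9.17 and 29.9 in HCT116 and 982, 621 and 1298 in E1, and S100A4 read 2235, 2254 and 2103 against 5552, 4584 and 6041. Both had E1 values above all HCT116 values on every array, and with E1 array 1 alone the differences were 4.52 and 1.33. Neither gene was called when any HCT116 array was left out, and S100A4 was not called without E1 array 2 or 3.

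**Figure D4:**
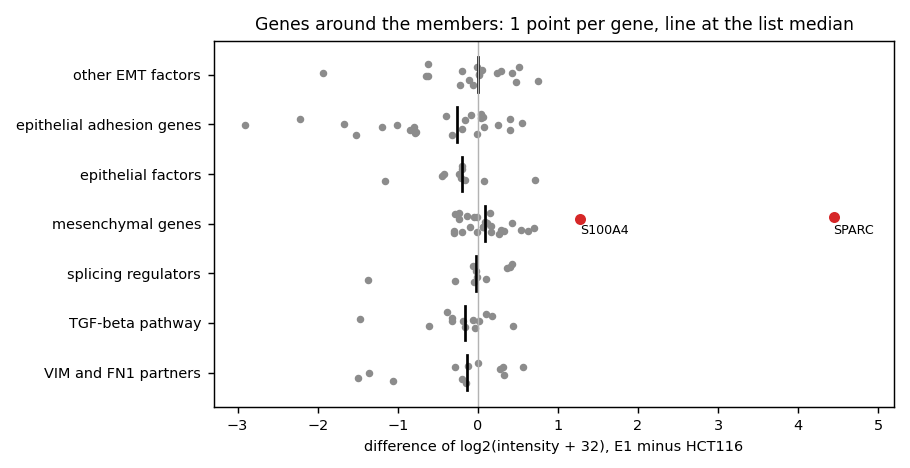
Difference of log2(intensity + 32), E1 minus HCT116, for the measured genes of 7 lists around the members, 1 grey point per gene, called genes in red and the list median as a black line (vertical scatter has no meaning). SPARC at 4.44 and S100A4 at 1.27 are the called genes, and the list medians lie between -0.26 and 0.09.

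Of 10 other splicing regulators of epithelial and mesenchymal isoforms limma called 0, the median was -0.02 and 1 had an unadjusted p under 0.05. The splicing factor SRSF1 read 2768, 1737 and 2409 against 1162, 948 and 570.2, a difference of -1.37 (SE 0.30, limma adjusted p = 0.146) with no overlap between the lines, and -0.94 with E1 array 1 alone. RBFOX2, a splicing factor active in EMT, read 462, 508 and 385 against 672, 590 and 513, a difference of 0.37 (SE 0.17), and 0.55 with E1 array 1 alone.

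Of 13 TGF-beta pathway genes (ligands, receptors, SMADs and the inhibitors SMAD6, SMAD7, SKI and SKIL), limma called 0, the median was -0.16 and 2 had an unadjusted p under 0.05. The ligand TGFB1 read 310.2, 190.4 and 259 against 188.5, 44.7 and 29.5, a difference of -1.47 (SE 0.48, limma adjusted p = 0.263) that was -0.35 with E1 array 1 alone. Its E1 array 1 read just under the lowest HCT116 array and E1 arrays 2 and 3 far below. The SMAD corepressor SKI read 45.4, 23.4 and 40.7 against 6.41, 19.3 and 12.4, all under 75.3 (difference -0.61, SE 0.19, and -0.82 with E1 array 1 alone).

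Of 12 vimentin partners and fibronectin receptors limma called 0, the median was -0.14 and 3 had an unadjusted p under 0.05. Plectin, PLEC, which links vimentin to other filaments, read 231.5, 177.7 and 183.1 against 124.2, 53.4 and 66.9, a difference of -1.06 (SE 0.25, limma adjusted p = 0.168), and -0.55 for E1 array 1 alone. The integrin chain ITGAV, part of fibronectin receptors, read 305, 313 and 254 against 404, 416 and 517, a difference of 0.56 (SE 0.16, limma adjusted p = 0.217), where E1 array 1 alone gave 0.44. PLEC was called lower where the probe sets of each gene were averaged. The 2 genes stood on opposite sides of HCT116 with no overlap of arrays in either. They were named by the smallest p of the list, a choice that favours arrays without overlap.

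Markers of other cell types that could carry mesenchymal transcripts were not called in limma in any of 4 marker lists, where 2 epithelial, 0 fibroblast, 1 endothelial and 0 leukocyte genes had an unadjusted p under 0.05. Of 10 colon epithelial markers 6 exceeded the bacterial range of up to 75.3 on at least 1 array, and their summed intensity ran from 13765 to 15930 in HCT116 and from 9708 to 11568 in E1. KRT8 in that list read 4693, 3169 and 4352 against 2862, 372.3 and 102.6, a difference of -2.91 (SE 1.03) that was -0.48 with E1 array 1 alone. Over the 10 epithelial markers the median difference was -0.11, with 4 positive and 6 negative. The positive ones were EPCAM (0.40), KRT20 (0.50), CDH17 (0.42) and CDH1 (0.03). Of 10 fibroblast markers 4 exceeded the range, with sums from 515 to 579 in HCT116 and from 372 to 617 in E1. Of 7 endothelial markers 0 exceeded it, with sums from 143.4 to 169.1 and from 112.0 to 190.1, and of 7 leukocyte markers 3 did, with sums from 260 to 396 and from 290.2 to 494. No marker was listed at 0. The smallest p in each list belonged to PDGFRA (difference 0.44) and COL1A2 (-0.29) for fibroblasts, VWF (0.36) and ENG (-0.37) for endothelium, and CD53 (0.50, and 1.11 with E1 array 1 alone) and CD3E (-0.28) for leukocytes. Their part in the FN1 values was not tested.

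The genes whose pattern over the 6 arrays was most like that of OVOL1, by Pearson's r of the log2 values among 5981 brighter genes, were the lysosomal sialidase NEU1 (r = 0.991), the scaffold protein SASH1 (r = 0.989) and the adaptor subunit AP1B1 (r = 0.985). NEU1 read 136.1, 146.2 and 150.2 in HCT116 and 113.2, 92.2 and 87.9 in E1, with E1 array 1 again between HCT116 and the other E1 arrays. The points share 6 arrays and the 2 lines, and 177 genes had an r over 0.9.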

How the data were processed

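Values are linear probe set intensities deposited by the authors, who used Affymetrix arrays and biotin-labelled RNA extracted with Trizol, per the labels. How probe sets were summarized, corrected for background and scaled, and the build of the probes, is not given in the sources used here. The values were analysed as log2(intensity + 32) without further normalization, so differences at low signal are understated. After removal of 68 control probe sets, HCT116 and E1 (3 arrays each) were compared by two-sided limma tests (version 3.58.1 under R 4.3.3, eBayes with no trend). Single probe sets were tested because all probe sets of a member were kept, and 11963 genes were tested for the lists. The number of arrays limits the precision. Symbols came from the platform annotation; 19065 probe sets carried 1 symbol, 1043 several and 2107 none. The RefSeq table (GRCh38.p14) held all 10 members under the same symbols, and its promoter table gave the sequences.

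The members and lists were chosen with earlier results of these data known. Named genes are the members, every called gene of a list, and the 2 genes of a list with the smallest p, plus CDH1 and CLDN7 and the 3 genes most like the member with the smallest p. The scripts were tested on simulated data. Alternatives were quantile normalization, median subtraction, offsets of 1 and 100, leaving out the lowest 40% by mean, a trended robust fit, the replicate number as a block, each array left out in turn, E1 array 1 alone, the GAPDH ratio as a covariate, leaving out probe sets ending in _x_at or _s_at, and averaging the probe sets of a gene.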

Additional observations from a re-analysis of the deposited data

How the results depend on the processing

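Among all 22215 probe sets, the 171 calls became 111 with an offset of 100, 310 of 13329 tested without the lowest 40%, 6 with the GAPDH ratio as a covariate and 28 of 11813 without _x_at and _s_at probe sets. There were 0 with E1 array 1 alone in limma (2791 at an unadjusted p under 0.05), a fit that takes its spread from HCT116 and gives no calls to read, and 0 with the replicate block (3126 at an unadjusted p under 0.05). Leaving out single arrays gave 5 to 2358 calls, the highest without E1 array 1. The count of called members was 0 in every other setting and 0 to 3 with single arrays left out, the 3 being SNAI1, OVOL1 and FN1 212464_s_at (1.45, adjusted p = 0.0462) without E1 array 1. The 2 called list genes became 1 with an offset of 1 or 100, and 0 with the block, with E1 array 1 alone, with the covariate or without _x_at and _s_at probe sets (79 of the 114 tested), and were 0 to 23 with single arrays left out. Deviations of same-numbered arrays from their line means had correlations across probe sets of -0.04, -0.31 and -0.09. For arrays with different numbers these ran from -0.12 to 0.21. The unlike E1 arrays enter these deviations, so the check cannot exclude pairing. The numbers were not taken as pairs in the main fit.

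Of 352 values of members under alternatives, 335 kept their direction and side of the threshold, 14 changed sign and 3 became calls. Signs changed in values near 0: ZEB1 212758_s_at was 0.023 after quantile normalization and 0.15 after median subtraction, TCF4 203753_at 0.013 and 0.093, and ZEB2 -0.011 with E1 array 1 alone. With single arrays left out ZEB1 212758_s_at ran from -0.031 to 0.021, FN1 214701_s_at from -0.049 to 0.20, VIM from -0.018 to 0.13, and TCF4 213891_s_at from -0.088 to 0.18, 203753_at from -0.15 to 0.13 and 212382_at from -0.0085 to 0.22. The causes were not tested. Signal near background limits the ZEB, SNAI2, TWIST1 and TCF4 values.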
